A study of Mus musculus with 6 samples.

Results

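Autophagy and lysosome genes were followed in T cells after 2 h with disulfiram (DSF). The list held 35 genes, chosen by symbol for their place in autophagy or the lysosome, among the 55536 genes of the deposited table. A gene was kept where the mean of its 6 counts was at least 10, and all 35 were kept. The lowest was Mitf, with a mean of 11.8 counts, followed by Wipi1 with 44.7. RNA came from primary OT-I T cells taken from lymph nodes of mice labelled wildtype and kept in RPMI medium with fetal bovine serum. The T cells of OT-I mice bear one transgenic receptor, against an ovalbumin peptide, and are mostly CD8 cells. Of the 6 libraries, 3 came from cells given DSF, a thiuram disulfide prescribed against alcohol dependence, and 3 from cells given only dimethyl sulfoxide (DMSO), each for 2 h. The labels used here give no DSF concentration, no age of the mice and no stimulation of the cells, and they call the 3 libraries of a group biological replicates without saying whether these came from separate animals. So the spread behind each p-value is that of these libraries and may be technical. DSF and DMSO were read from the column codes DF and DO, on which every direction rests.

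Autophagy wraps part of the cytoplasm in a growing double membrane and delivers it to the lysosome, where hydrolases break it down. The ULK1 kinase complex starts the process, a lipid kinase complex around Beclin 1 marks the membrane, ATG2 and ATG9 supply lipid, and a conjugation system fixes ATG8 proteins on the membrane, to which receptors such as p62 tie their cargo. TFEB, TFE3 and MITF are transcription factors that drive many of these genes through a short palindrome in their promoters. In mouse CD8 T cells, autophagy is known for its part in survival and in memory after activation.

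With DSF, 6 of the 35 genes rose and 2 fell, and 27 did not pass the test. Sqstm1, which encodes the receptor p62, rose 1.3-fold, the largest change among the 35 in either direction. Ulk1, Ulk2 and Rb1cc1 of the initiation complex rose 1.16- to 1.23-fold, and Atg9a and Atg2a rose 1.17- and 1.12-fold. Atg5 and Atg16l1, whose products act with ATG12 to attach ATG8 proteins to the membrane, fell to 0.859 and 0.89 of their DMSO levels. None of the 6 lysosomal genes and none of the 3 transcription factor genes passed. The call was made with edgeR's quasi-likelihood test, where the Benjamini-Hochberg adjusted p over all genes tested was under 0.05. By that rule 22.9% of the 14318 genes tested were called, 11.6% higher and 11.3% lower, and 22.9% of the 35 were called too, so the share of called genes was that of the background. The median log2 fold change was 0.035 over the 35 genes and -0.003 over all genes tested. In the authors' deposited table of the same comparison, 8.54% of 27139 genes were called, and of the 35 genes Sqstm1, Ulk1 and Rb1cc1 were called higher and 0 lower. The authors' deposited table also sets both groups against one coded DC, which the labels used here do not explain: 3 of the 35 genes were called for DC over DF, against 7.11% of all genes, and 1 for DC over DO, against 0.345%. The values of the 3 DSF and 3 DMSO libraries did not overlap in 12 of the 35 genes, against 35.4% of all genes.

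The windows around the start sites show which of these genes hold that palindrome. RefSeq promoter windows on GRCm38.p6, from 250 bases before to 50 after the start site, were found for 29 of the 35 genes. Map1lc3a, Rb1cc1, Becn1, Atg12, Atg16l1 and Ctsb had no entry. The shared core CACGTG, which reads the same on both strands, stood in at least 1 window of Atg3, Atg5, Atg7, Atg14, Ctsd, Ctsl, Mcoln1 and Rubcn, that is in 8 of 29 genes. It stood in 7.15% of all 32851 windows and in a window of 11.7% of the tested genes that had one. The windows follow RefSeq start sites, and some lie inside the gene as placed by GENCODE M21. The Atg7 window starts at 114670846, while the gene begins at 114643097 on the plus strand. On the minus strand, the core windows of Rubcn, Atg14 and Ctsl end at 32868616, 47568684 and 64370770. Those genes begin at 32877766, 47570649 and 64370890, and the other window of Rubcn held no core. So a core in a window need not lie at the 5′ end of the gene. The longer form TCACGTGA, which contains the core, stood in Atg3, Ctsd and Mcoln1, in 0.974% of all windows and in 2.22% of tested genes. The full CLEAR palindrome, which adds a base on each side and so contains both, stood in none of the 29 genes, in 0.326% of all windows and in 0.799% of tested genes. The windows of the 2 genes with the largest rises among the 35 and of 2 lysosomal genes with the longer form are printed below, 5′ to 3′ on the strand of the gene, with the core or its longer form in capitals.
Sqstm1, chr11:50210771-50211070, minus strand: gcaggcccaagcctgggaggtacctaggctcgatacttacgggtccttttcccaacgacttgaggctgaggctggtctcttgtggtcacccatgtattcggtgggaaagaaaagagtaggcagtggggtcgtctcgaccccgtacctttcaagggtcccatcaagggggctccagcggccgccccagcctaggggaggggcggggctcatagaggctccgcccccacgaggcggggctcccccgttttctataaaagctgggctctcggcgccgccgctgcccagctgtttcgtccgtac
Ulk1, chr5:110810032-110810331, minus strand: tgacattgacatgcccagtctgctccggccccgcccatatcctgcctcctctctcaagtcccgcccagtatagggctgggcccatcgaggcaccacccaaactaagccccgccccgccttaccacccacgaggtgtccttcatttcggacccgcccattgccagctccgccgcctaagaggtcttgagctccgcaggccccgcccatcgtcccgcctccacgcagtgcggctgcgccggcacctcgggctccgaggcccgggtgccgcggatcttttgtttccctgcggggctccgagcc
Ctsd, chr7:142387778-142388077, minus strand: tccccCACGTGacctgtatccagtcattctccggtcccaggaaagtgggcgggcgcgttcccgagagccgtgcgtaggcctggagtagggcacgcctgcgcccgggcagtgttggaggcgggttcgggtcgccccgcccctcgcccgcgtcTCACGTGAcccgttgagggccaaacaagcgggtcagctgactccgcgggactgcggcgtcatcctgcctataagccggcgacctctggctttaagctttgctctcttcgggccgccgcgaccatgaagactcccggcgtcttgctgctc
Mcoln1, chr8:3500269-3500568, plus strand: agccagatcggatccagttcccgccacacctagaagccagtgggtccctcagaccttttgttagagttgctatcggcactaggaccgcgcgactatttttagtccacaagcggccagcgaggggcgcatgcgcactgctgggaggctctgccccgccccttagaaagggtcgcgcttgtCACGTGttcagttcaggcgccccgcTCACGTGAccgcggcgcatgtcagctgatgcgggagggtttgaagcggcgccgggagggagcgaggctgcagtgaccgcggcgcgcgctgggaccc

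Neither Sqstm1 nor Ulk1 held the core in this window. In Mcoln1 the cores began 71 and 45 bases upstream of the start site, and in Ctsd 245 and 98 bases upstream. Of the 8 genes with the core 1 was called, Atg5, which fell, against 22.9% called over all genes tested, so with so few genes nothing can be read from that count. Of the 6 genes called higher, Sqstm1, Ulk1, Ulk2, Atg2a and Atg9a had a window, none with the core. TGACNNNGC, the core of the element bound by NRF2, with N for any base and on either strand, stood in the windows of Atg13, Ctsd, Hexa, Map1lc3b, Mitf and Ulk2, against 12.4% of all windows and 16.7% of tested genes. A match describes letters in the window, and the lack of one says only that these letters are not in it.

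The 6 libraries held 18082264 to 21893720 counts. Levels between libraries are given as CPM, a gene's count scaled to library size, and a floor of 3 counts is 0.137 to 0.166 CPM, which covers counting error only. All 9 T cell markers were detected, among them Cd3e at 218 ± 1.78 CPM in DSF and 229 ± 10.9 CPM in DMSO (mean ± SD, n = 3 per group, as throughout), while Cd4 stood at 1.63 ± 0.411 and 1.22 ± 0.03 CPM. Cd8a stood at 350.0 ± 5.64 CPM in DSF and 411 ± 5.05 CPM in DMSO. Cd3g, Cd247, Trac and Cd8a were lower with DSF, that is 44.4% of the 9 markers called, against 22.9% of all genes tested. In 7 of the markers all DSF libraries lay below all DMSO libraries, against 17.9% of all genes. The summed level of the 9 markers was 2074 to 2138 CPM in DSF and 2286 to 2332 CPM in DMSO. In bulk RNA, fewer cells of a type and less RNA per cell cannot be told apart, and the part of these markers in the values of the 35 genes was not tested. Of 18 myeloid and dendritic cell markers, 8 had a mean under 3 counts and Siglech had none in any library. Of 10 tested Xcr1, Clec10a and Mpeg1 were lower and none higher (1 call by DESeq2), that is 30% called, against 22.9% of all genes. The other 7 did not pass, among them Cd14 at 3.72 ± 0.313 CPM in DSF and 2.92 ± 0.229 CPM in DMSO, its libraries not overlapping, and Cybb at 8.84 ± 0.593 and 7.81 ± 0.824 CPM. The 7 B cell markers summed to 205 to 215 CPM in DSF and 222 to 229.8 CPM in DMSO. Most of that was Ighm, which was lower, at 175 ± 5.76 CPM in DSF and 192 ± 2.75 CPM in DMSO (edgeR's adjusted p = 0.00802). The other 6 did not pass, so 14.3% were called. Of 10 stromal, endothelial and erythroid markers 4 were tested and none passed.

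Per unit of transcript length, in the deposited TPM, the levels of the 35 genes spanned a wide range. Sqstm1 had the highest mean over the 6 libraries, 319 TPM, above 97.6% of the genes tested, followed by the protease gene Ctsd with 157, Gabarap with 127, Becn1 with 100.2 and Gabarapl1 with 74.4 TPM. Ctsb followed with 65 TPM and Map1lc3b with 61.5 TPM. The libraries of Ctsb overlapped those of its neighbours Gabarapl1 and Map1lc3b, so their order is within the spread. At the low end stood Optn with 2.86, Wipi1 with 1.46 and Mitf with 0.185 TPM. Mitf lay above only 0.9% of the genes tested. Sqstm1 was the only 1 of the 5 most abundant genes to pass the test.

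**Figure D1:**
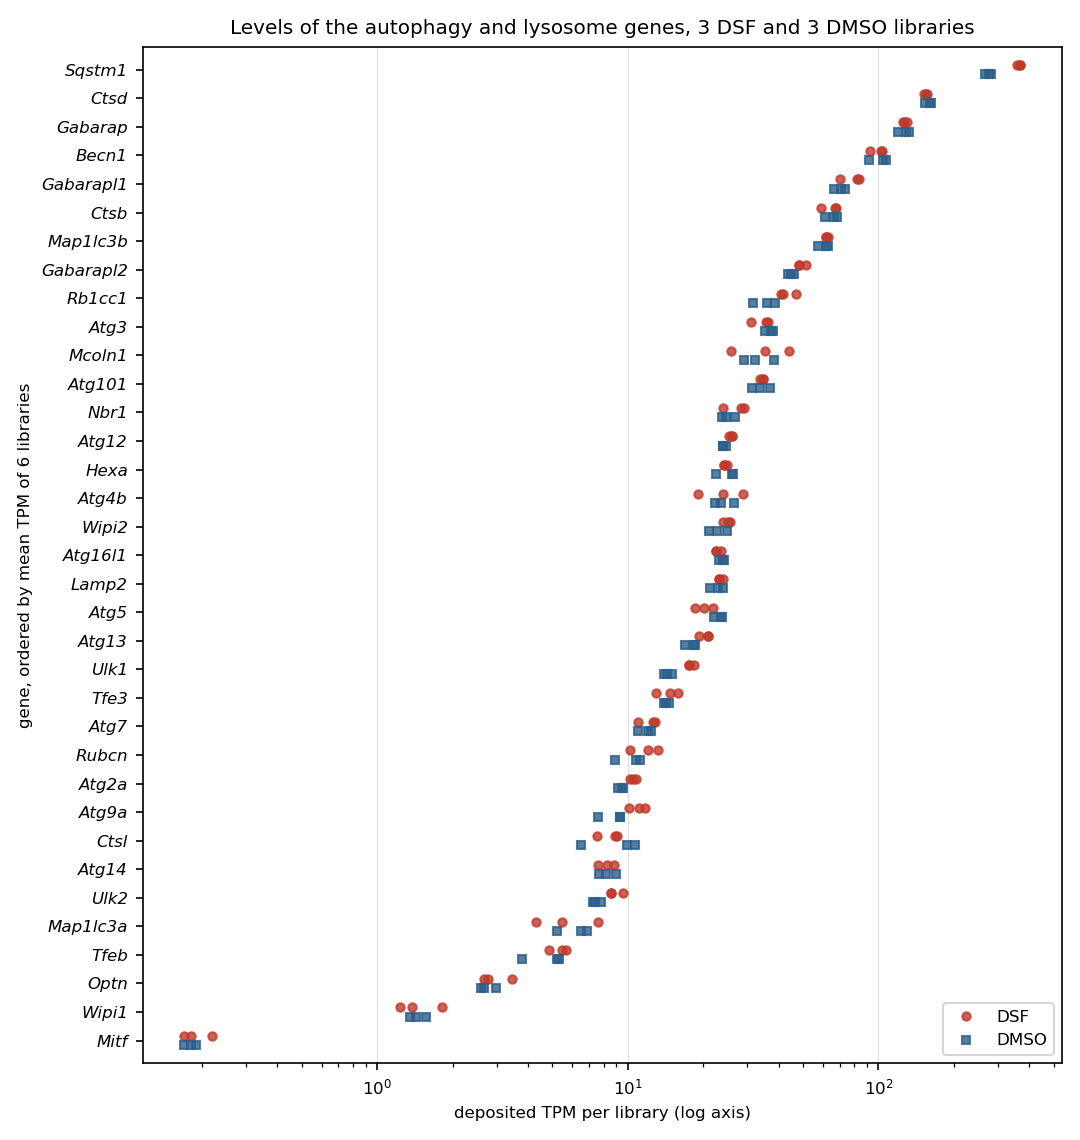
Deposited TPM of the 35 genes in each of 3 DSF (red circles) and 3 DMSO (blue squares) libraries, on a log axis, ordered by the mean of the 6. Sqstm1 stands alone at the top with its DSF libraries above its DMSO libraries, and in most other genes the groups overlap.

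Autophagy receptors bind cargo, often tagged with ubiquitin, and hook it to ATG8 proteins. Sqstm1 (ENSMUSG00000015837), on chromosome 11 from 50199366 to 50210827 of GRCm38, had 538, 522 and 539 CPM in DSF libraries 1 to 3, against 410.2, 410.5 and 410.3 CPM in DMSO libraries 1 to 3. All DSF libraries lay above all DMSO libraries, and the DMSO values were nearly equal. The log2 fold change was 0.38 ± 0.03 (SE), with edgeR's adjusted p = 3.89e-11, and it ranked 1237 from the top among 14318 genes by size of the rise. In the deposited TPM, Sqstm1 stood at 364 ± 7.05 in DSF and 275 ± 7.23 in DMSO. Its exons overlap those of Mrnip, which runs the other way, and strand use in counting was not given in the sources used here. Mrnip had only 1.84 ± 0.446 CPM in DSF and 1.69 ± 0.186 CPM in DMSO.

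The other receptor genes did not pass. Nbr1, a receptor related to p62, had 70.2 ± 5.83 CPM in DSF and 64.2 ± 1.54 CPM in DMSO (edgeR's adjusted p = 0.085), and without DSF library 2, its lowest DSF value, the adjusted p was 0.0103. Optn, whose product optineurin takes part in the removal of damaged mitochondria, had 5.24 ± 0.579 CPM in DSF and 4.97 ± 0.551 CPM in DMSO. Its log2 fold change had a 95% interval of -0.22 to 0.38, so at this depth a rise as large as that of Sqstm1 lay at the edge of what Optn's interval allows.

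The ULK1 complex holds the kinase ULK1 or ULK2, the scaffold FIP200, which Rb1cc1 encodes, and the subunits ATG13 and ATG101. Of these 5 genes 3 rose and none fell, where 11.6% of all genes tested rose and 11.3% fell. Whether the complex differs from other genes was not tested. Ulk1, on chromosome 5 from 110784488 to 110810097, had 53.2, 56.2 and 54.4 CPM in DSF, against 42.3, 45.9 and 44.4 CPM in DMSO. The groups did not overlap, and the log2 fold change was 0.30 ± 0.05 (SE, edgeR's adjusted p = 3.05e-05). Rb1cc1, the most abundant gene of the complex at 39.3 TPM, had 128, 126 and 126 CPM in DSF, against 115, 101 and 109.5 CPM in DMSO. The groups again did not overlap, and the DMSO libraries were more spread than the DSF libraries (log2 fold change 0.22 ± 0.05, edgeR's adjusted p = 0.000364). By limma on TPM the gene was not called (adjusted p = 0.0983). The exons of Rb1cc1 overlap an antisense gene, 4732440D04Rik, at 8.02 ± 0.216 CPM in DSF and 7.13 ± 0.358 CPM in DMSO.

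Ulk2 had 33.2, 35 and 32.7 CPM in DSF, against 29, 29.8 and 28.3 CPM in DMSO. All DSF values were higher, with a log2 fold change of 0.21 ± 0.06 (edgeR's adjusted p = 0.00914), and the call ended without DSF library 2 (adjusted p = 0.0585) and by limma on TPM (adjusted p = 0.127). Atg13, at 49.1 ± 1.67 CPM in DSF and 44.7 ± 1.97 CPM in DMSO, had groups that did not overlap but missed the threshold (edgeR's adjusted p = 0.0614). Atg101 was at 27.4 ± 0.265 CPM in DSF and 27.5 ± 1.86 CPM in DMSO, with a 95% interval of the log2 fold change from -0.14 to 0.13. Summed over the 5 genes, the complex stood at 289 to 295 CPM in DSF and 249 to 259 CPM in DMSO.

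**Figure D2:**
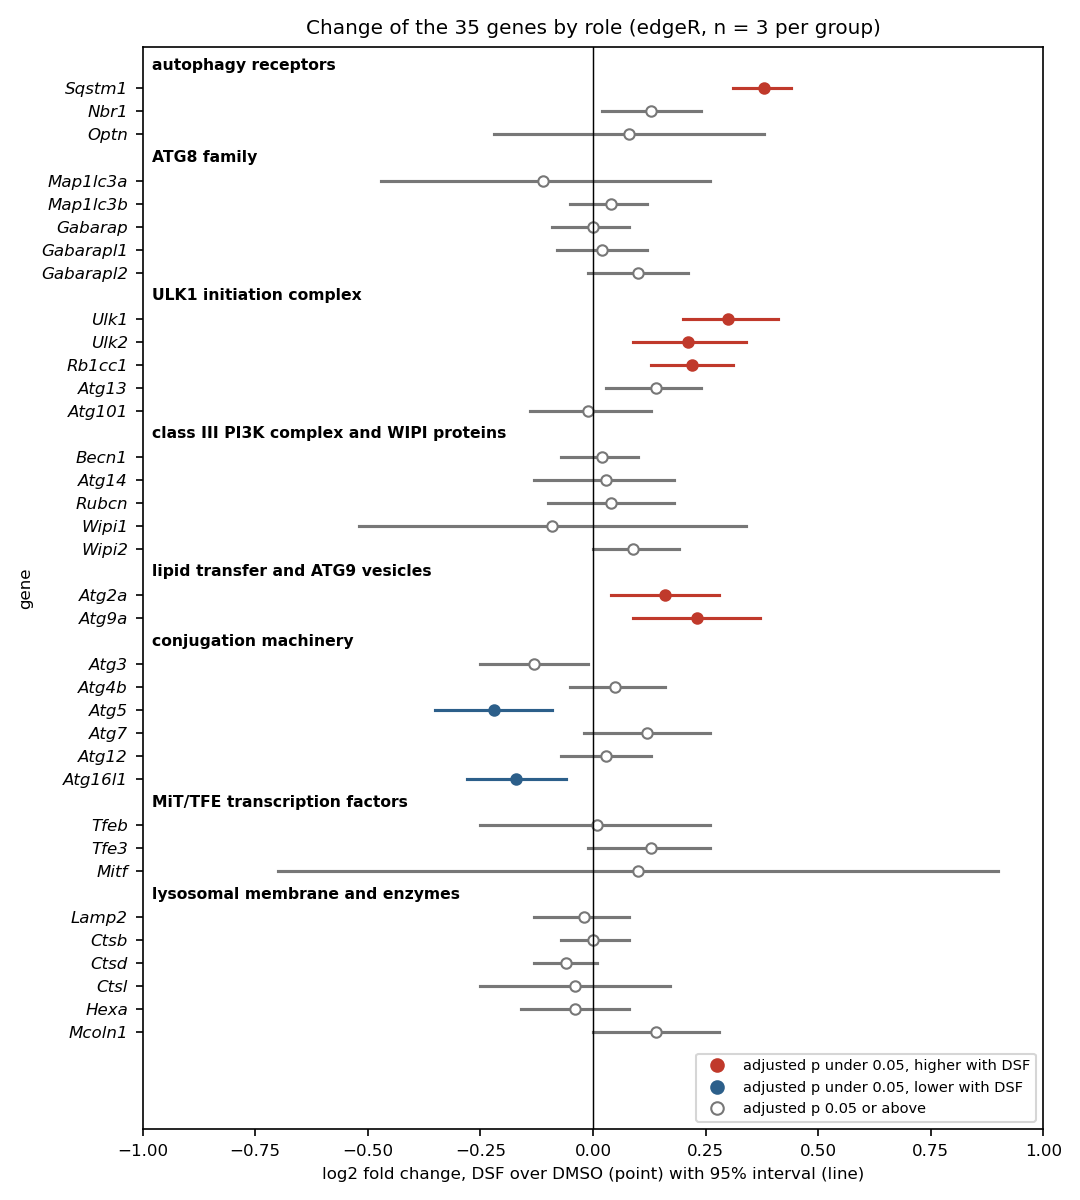
Log2 fold change of each of the 35 genes, DSF over DMSO, with its 95% interval (edgeR, n = 3 per group), grouped by role. Filled red and blue points passed the threshold in either direction, open grey points did not, and the intervals of the low genes Mitf, Wipi1 and Map1lc3a are the widest.

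ATG2 proteins move lipid into the growing membrane, and ATG9 is a membrane protein that carries in the first vesicles. Atg9a had 26, 24.6 and 28.7 CPM in DSF, against 22.3, 22.5 and 22.8 CPM in DMSO. The DSF values were all higher but spread, and the log2 fold change was 0.23 ± 0.07 (edgeR's adjusted p = 0.0149), a call that ended without DSF library 3 (adjusted p = 0.16), by DESeq2 (adjusted p = 0.0568) and by limma on TPM (adjusted p = 0.122). Exons of Atg9a overlap Gm29253 on the same strand, at 6.99 ± 2.07 CPM in DSF and 5.68 ± 1.08 CPM in DMSO, and Ankzf1 on the opposite strand, at 25.4 ± 0.531 and 25.3 ± 1.72 CPM, so its counts are uncertain to that extent. Atg2a had 38.5, 40.5 and 38.7 CPM in DSF, against 33.2, 34.7 and 37.5 CPM in DMSO. Its groups came close to each other, and its call was the weakest of the 8 (log2 fold change 0.16 ± 0.06, edgeR's adjusted p = 0.0487). It ended when any library but DMSO library 3 was left out (adjusted p of 0.06 to 0.171), and by DESeq2 (adjusted p = 0.135), limma on TPM (0.213), upper-quartile factors (0.0589) and no filter on low counts (0.0709).

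The conjugation machinery works like that of ubiquitin: ATG7 and ATG3 pass ATG8 proteins on, ATG4B trims and frees them, and ATG12, ATG5 and ATG16L1 form the complex that attaches them to the membrane. Of these 6 genes 2 fell and none rose, that is 33.3% called, against 22.9% of all genes tested. Atg5, on chromosome 10 from 44268358 to 44364291, had 33.7, 31.2 and 36.2 CPM in DSF, against 41.4, 37.8 and 38.8 CPM in DMSO. The DSF libraries were all lower, with a log2 fold change of -0.22 ± 0.06 (edgeR's adjusted p = 0.00806), and the call ended without DSF library 2 (adjusted p = 0.0979) and by limma on TPM (adjusted p = 0.161). Atg16l1 had 45.3, 51.2 and 49.9 CPM in DSF, against 55.2, 54.2 and 55.3 CPM in DMSO. DSF library 1 was the lowest, and the log2 fold change of -0.17 ± 0.05 (edgeR's adjusted p = 0.018) was not called without it (adjusted p = 0.182) or without DMSO library 3 (adjusted p = 0.0521), nor by DESeq2 (adjusted p = 0.0578). In TPM, where limma gave a log2 fold change of -0.06 on log2(TPM + 1), Atg16l1 was at 22.8 ± 0.559 in DSF and 23.8 ± 0.633 in DMSO and did not pass (limma's adjusted p = 0.547).

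The most abundant gene of this machinery, Atg3, had 44.6, 52.5 and 51.6 CPM in DSF, against 56.7, 52.2 and 54 CPM in DMSO. The groups overlapped and the gene did not pass (edgeR's adjusted p = 0.111). Atg4b, Atg7 and Atg12 had log2 fold changes of 0.05, 0.12 and 0.03 and did not pass. For the partner of ATG5, Atg12, the 95% interval ran from -0.07 to 0.13 and did not reach the fall of Atg5 or of Atg16l1, though the differences between these genes were not tested.

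**Figure D3:**
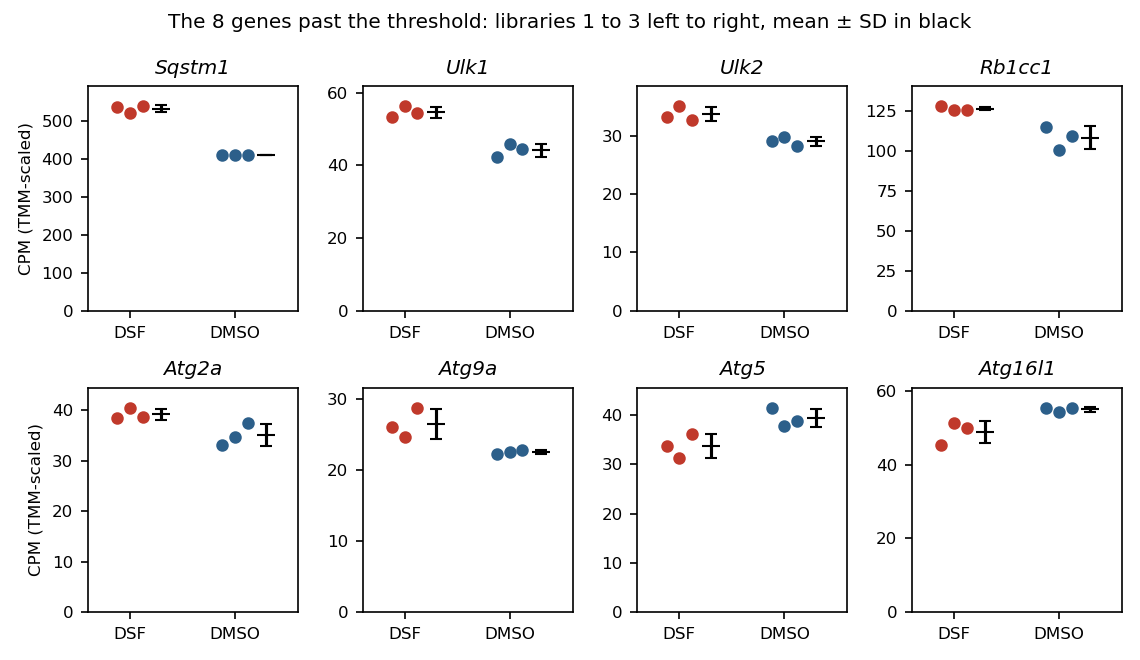
CPM per library of the 8 genes past the threshold, DSF (red) left of DMSO (blue), with mean ± SD in black and axes from 0. The 6 genes from Sqstm1 to Atg9a lie higher in all DSF libraries and Atg5 and Atg16l1 lie lower, with the gap between the groups smallest in Atg2a relative to their spread and widest in Sqstm1.

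The ATG8 family, the ubiquitin-like proteins that coat the autophagosome and bind the receptors, showed no call among 5 genes (edgeR, with 0 at an unadjusted p under 0.05, and 0 by DESeq2). Over all 14318 genes tested, edgeR called 22.9%, and 4616 had an unadjusted p under 0.05. Whether the family differs from other genes was not tested. Gabarap, the most abundant, had 103, 103 and 102 CPM in DSF, against 100.5, 104 and 104 CPM in DMSO. The groups overlapped, and the 95% interval of its log2 fold change was -0.09 to 0.08. Map1lc3b, the gene for LC3B, stood at 116 ± 1.63 CPM in DSF and 113 ± 5.33 CPM in DMSO, with an interval of -0.05 to 0.12. Both intervals lie below the change of Sqstm1. Map1lc3b, Gabarapl2 and Rb1cc1 have processed pseudogenes at least 95% identical over 349 bases or more, each of which had under 1 count on average. Map1lc3b and Ctsl share shorter stretches with transcripts of many unrelated genes, and Atg2a, Atg12, Wipi2 and Mcoln1 share stretches with fewer. The called gene Atg2a, with a mean of 738 counts, shares 177 bases with Fkbp5, which had 1604.33. The counts of all these genes are uncertain to that extent. Gabarapl1 was at 74.1 ± 2.66 CPM in DSF and 73 ± 2.51 CPM in DMSO, and Gabarapl2 at 55.5 ± 2.78 and 51.7 ± 2.22 CPM. Map1lc3a was low, at 3.76 ± 1.05 CPM in DSF and 4.05 ± 0.371 CPM in DMSO, with a wide interval of -0.47 to 0.26.

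Beclin 1 and ATG14 belong to the lipid kinase complex that marks the new membrane, and WIPI proteins read the mark. Rubicon restrains another form of the Beclin 1 complex. Of the 14318 genes tested 4616 had an unadjusted p under 0.05, and 22.9% were called by edgeR. None of the 5 genes for Beclin 1, ATG14, Rubicon and the WIPI proteins passed (edgeR, with 0 at an unadjusted p under 0.05, and 0 by DESeq2). Becn1, the most abundant, had 132, 132 and 129 CPM in DSF, against 135, 128 and 127 CPM in DMSO. The groups overlapped, with an interval of -0.07 to 0.10. Atg14, Rubcn and Wipi1 had log2 fold changes of 0.03, 0.04 and -0.09. The libraries of Wipi2 did not overlap, at 80.3 ± 3.45 CPM in DSF and 75.2 ± 2.55 CPM in DMSO, but the gene did not pass (edgeR's adjusted p = 0.18). The exons of Rubcn overlap those of Fyttd1 on the opposite strand, and those of Becn1 overlap Cntd1.

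Among the transcription factor genes, Tfe3 had the highest level, 14.4 TPM, with 30.1, 34.5 and 32.6 CPM in DSF, against 28.4, 30.9 and 29.8 CPM in DMSO. The groups overlapped (edgeR's adjusted p = 0.178). Tfeb stood at 7.33 ± 0.659 CPM in DSF and 7.28 ± 0.907 CPM in DMSO, with an interval of -0.25 to 0.26, and Mitf at 0.625 ± 0.184 and 0.575 ± 0.106 CPM, with one of -0.70 to 0.90. No member of the trio had an unadjusted p under 0.05 by edgeR or a call by DESeq2. Among all 14318 genes tested, 4616 had such a p and 22.9% were called by edgeR. These factors are controlled mainly by phosphorylation and entry into the nucleus, which transcript counts do not show.

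In the lysosome, CTSB, CTSD and CTSL are proteases, HEXA degrades gangliosides, LAMP2 lines the membrane and MCOLN1 is a calcium channel. By edgeR 22.9% of all genes tested were called, and 4616 of 14318 had an unadjusted p under 0.05. None of the 6 lysosomal genes passed (edgeR, with 0 at an unadjusted p under 0.05, and 0 by DESeq2). Ctsd, the most abundant, had 228, 230.4 and 236 CPM in DSF, against 236, 246 and 241 CPM in DMSO. The DSF libraries lay just below the DMSO libraries, and the interval of -0.13 to 0.01 leaves room only for a small fall. Ctsb was at 179 ± 3.96 CPM in DSF and 179 ± 3.46 CPM in DMSO, with an interval of -0.07 to 0.08. Mcoln1 was at 23.9 ± 1.48 CPM in DSF and 21.7 ± 0.201 CPM in DMSO (edgeR's adjusted p = 0.166), its libraries not overlapping. In TPM its libraries did overlap, at 35 ± 9.01 in DSF and 33.3 ± 4.69 in DMSO. Lamp2, Hexa and Ctsl had log2 fold changes of -0.02, -0.04 and -0.04. The 6 genes summed to 529 to 532 CPM in DSF and 531 to 543 CPM in DMSO. Myeloid cells are rich in these enzymes. The 18 myeloid and dendritic cell markers summed to 67.5 to 71.4 CPM in DSF and 75.2 to 78.2 CPM in DMSO. Of the 10 tested, 4 had a positive and 6 a negative log2 fold change. Xcr1 stood at 5.38 ± 1.1 CPM in DSF and 10.7 ± 1.59 CPM in DMSO, and Mpeg1 at 13.1 ± 1.02 and 15.5 ± 0.981 CPM. Another dendritic cell marker, Clec9a, had 0, 0 and 0 counts in DSF and 1, 0 and 0 counts in DMSO. Lyz2 stood at 11 ± 1.11 and 11.5 ± 1.09 CPM, and Cd68 at 21.1 ± 0.517 and 20.9 ± 1.11 CPM. So the lower sum does not describe all of these markers, and their part in the lysosomal values was not tested. Exons of Ctsb overlap Fdft1 on the opposite strand, whose mean of 1529 counts is of the same order as that of Ctsb.

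Taken as a sum, the 35 genes stood at 2419 to 2428 CPM in DSF and 2246 to 2259.5 CPM in DMSO. Sqstm1 made up 123 CPM of that difference, with a mean of 533 CPM in DSF and 410.3 CPM in DMSO. The other 34 genes together made up 49.3 CPM, with 1881, 1902 and 1889 CPM in DSF, against 1836, 1838 and 1849 CPM in DMSO.

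Other genes of the pathway, in 4 lists, went in both directions or did not pass. Of 34 further autophagy genes tested 5 rose and 4 fell, at a median log2 fold change of 0.038. These are 26.5% of the list, close to the 22.9% called over all genes. Atg4a, a protease that trims ATG8 proteins, rose to 29.3 ± 1.73 CPM in DSF, against 24.4 ± 1.31 CPM in DMSO. The receptor gene Tax1bp1 rose to 304 ± 10.4 CPM in DSF, against 279 ± 9.27 CPM in DMSO, and Zfyve1, whose product DFCP1 marks sites where autophagosomes form, rose 1.16-fold. Tecpr1, whose product acts where autophagosomes meet lysosomes, fell to 225 ± 10.6 CPM in DSF, against 265 ± 9.48 CPM in DMSO. Ncoa4, the receptor for ferritin, and Vmp1, a lipid scramblase of the endoplasmic reticulum, fell to 0.908 and 0.904 of their DMSO levels. The edgeR adjusted p of these 6 genes ran from 1.14e-05 to 0.0319.

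Of 60 further genes for lysosomal hydrolases, membrane proteins and their sorting receptors, 7 rose and 6 fell, at a median of -0.006. These are 21.7% of the list, against 22.9% of all genes. The genes with the smallest p among those that rose were Gm2a, the cofactor of hexosaminidase, at 215 ± 6.92 CPM in DSF and 189 ± 3.18 CPM in DMSO, the glycogen-degrading glucosidase gene Gaa, which rose 1.18-fold, and the galactosylceramidase gene Galc, which rose 1.19-fold. Ctsc, the protease that activates granzymes, fell to 79.6 ± 1.04 CPM in DSF, against 95 ± 3.59 CPM in DMSO. Igf2r, the receptor that brings hydrolases to the lysosome, fell to 0.898, and Sgsh, a sulfatase of heparan sulfate, to 0.762 of its DMSO level. The edgeR adjusted p of these 6 genes ran from 9.07e-05 to 0.00502. None of the 17 V-ATPase genes, whose products acidify the lysosome, passed by edgeR or by DESeq2. Their median was -0.029. Of all 14318 genes tested 4616 had an unadjusted p under 0.05, and of the 17 V-ATPase genes 2 did. These were Atp6v0a1, at 6.85 ± 0.148 CPM in DSF and 8.59 ± 1.28 CPM in DMSO, and Atp6v0a2, at 82.3 ± 4.8 and 75.1 ± 3.73 CPM, named after their values were seen.

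Genes of the nutrient and energy control of autophagy were called about as often as all genes. Of 34 tested for mTORC1, its Ragulator and folliculin regulators and AMPK, 4 rose and 3 fell, at a median of 0.025, which makes 20.6% called, against 22.9% of all genes. Prkab2, a regulatory subunit of the energy sensor AMPK, rose 1.43-fold, with 19.7, 20.2 and 20.9 CPM in DSF, against 14.2, 14.8 and 13.6 CPM in DMSO. Fnip1, the partner of folliculin, rose to 93.1 ± 4.22 CPM in DSF, against 74.2 ± 4.16 CPM in DMSO. The sestrins, which hold mTORC1 back, split. Sesn1 rose 1.41-fold, and Sesn3 fell to 0.816 and Sesn2 to 0.877 of their DMSO levels. Lamtor5, a Ragulator subunit, fell to 0.909. By edgeR the adjusted p ran from 1.26e-09 for Sesn1 to 0.0466 for Lamtor5.

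**Figure D4:**
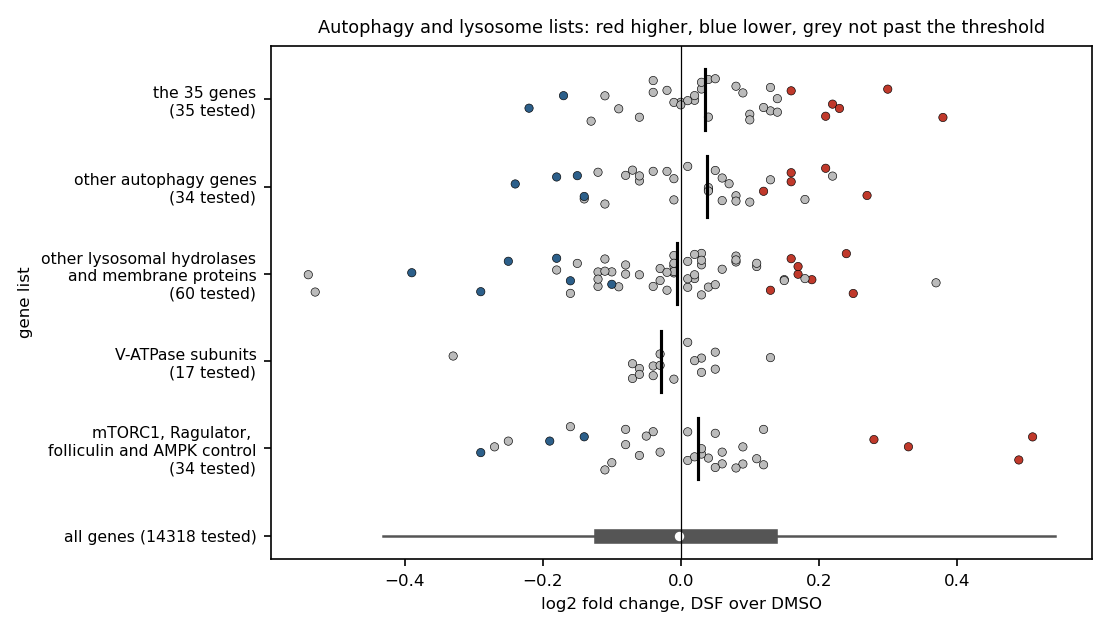
Log2 fold changes, DSF over DMSO, of the 35 genes and of 4 further lists, each point a gene (red higher, blue lower, grey not past the threshold) with the list's median as a bar, above the 5th to 95th percentile (line), the 25th to 75th percentile (thick bar) and the median (white point) of all 14318 genes tested. The list medians lie between -0.03 and 0.04, and the V-ATPase points are grey throughout.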

How the data were processed

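Sequencing libraries were prepared with the SMARTER kit (1 µg of RNA each), per the labels' protocols. GRCm38 (mm10) is the build named in the submitters' processing notes, while the aligner, counter and strandedness were not given in the sources used here. For every gene and library the authors deposited an expected count and a TPM value. Of the expected counts 12.1 to 12.9% were not whole, a share over all 55536 genes that includes zeros. Only 21286 to 21779 genes per library had a count above 0. The authors also deposited fold changes (ratios), log2 fold changes, p-values and adjusted p-values, per the file headers. The column of mean TPM named DO matched the mean over columns A, and DF that over columns B, within 0.0001 TPM for all 55536 genes. On this basis A was taken as DMSO and B as DSF, with the digit as the replicate number. Of the columns with values per library, 0 were left unused.

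Expected counts were rounded to whole numbers. After filterByExpr, 14318 genes were left and 41218 removed. TMM factors lay between 0.9952 and 1.0053. The test was the robust quasi-likelihood fit of edgeR 4.0.16 in R 4.3.3, with group as its sole term, and SE was taken from the log2 fold change and the F statistic. Intervals are 95%. Alternatives used DESeq2 1.42.0 and limma 3.58.1, on log2(TPM + 1). Replicates differed by more than counting error (chi-square per degree of freedom 2.21 to 4.27). Positions came from GENCODE M21. The members and lists were chosen with earlier results of these data known. Values per library were printed for called members and the most abundant member of each role, and of each further list the 3 called genes with the smallest p in each direction were named.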

Additional observations from a re-analysis of the deposited data

Results flagged for a closer look

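A further table by the authors compares DF and DO with a group coded DC, which the labels do not explain and of which no library was analysed here. In the authors' deposited table the log2 fold change of Sqstm1 was 0.13 for DC over DO (authors' adjusted p = 0.00141), a signal in data outside the comparison above. Sqstm1 was the only 1 of the 35 genes called there, where 0.345% of genes were called. For DC over DF, the authors' deposited table gives -0.25 for Sqstm1, -0.17 for Rb1cc1 and 0.19 for Atg16l1, the 3 of the 35 genes called, where 7.11% of genes were called (authors' adjusted p = 1.3e-20, 0.00321 and 0.0356). For DF over DO it gives 0.38, 0.22 and -0.17 for these genes in that order, with Sqstm1, Ulk1 and Rb1cc1 called higher and 0 of the 35 lower, where 8.54% of genes were called. The comparisons share groups, so they do not stand apart from each other.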

How the results depend on the processing

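Sqstm1 and Ulk1 kept their calls under all 13 alternatives, and no member that was called changed direction. Of 453 values of members under alternatives, 21 lost a call and 3 gained one. By DESeq2, 2555 genes were called over all genes, with 4 members higher and 1 lower, 2 and 2 of the other autophagy genes, and 1 lower in the mTORC1 list. With limma on log2(TPM + 1) 1259 genes were called, with 2 members higher and 0 lower, 0 and 0 of the other autophagy genes, 2 and 2 of the other lysosomal genes and 0 lower in the mTORC1 list; the cause was not tested. Upper-quartile factors called 1 V-ATPase gene lower. The median log2 fold change over all genes was -0.003 with TMM, -0.001 with DESeq2 size factors and -0.009 with upper-quartile factors. Each of these scalings brings most genes near 0, so the medians cannot show which scaling is right.

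Leaving out each library in turn gave 2565 to 2972 calls over all genes, 4 to 6 members higher and 1 to 2 lower, and 12 to 19 members with groups that did not overlap, the highest without DMSO library 1 (54.3% of members, against 44.8% of all genes). With 1 library fewer, 43 to 44.8% of all genes did not overlap, against 35.4% with all 6. It gave 2 to 5 other autophagy genes higher and 1 to 4 lower, 3 to 6 other lysosomal genes higher and 3 to 6 lower, 0 to 1 V-ATPase genes higher and 0 to 1 lower, and 1 to 3 genes of the mTORC1 list lower. Same-numbered libraries did not deviate together (r = -0.04, -0.02 and -0.05), which cannot show whether they share an animal or a preparation. With the replicate number as a block, 8 members were higher and 2 lower, Atg13 and Nbr1 passed, 1 V-ATPase gene was higher and 1 lower, and 3829 genes were called over all. Depth limits Mitf, Wipi1, Map1lc3a and Optn, whose intervals are the widest of the 35.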

Other observations

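Close relatives within the pathway did not move alike in 2 families, which were picked out after their values were seen. Of the 4 genes for ATG4 proteases, Atg4a was higher (log2 fold change 0.27 ± 0.07, edgeR's adjusted p = 0.0038) and Atg4d lower (-0.18 ± 0.06, adjusted p = 0.0382), at 31 ± 1.89 CPM in DSF and 35.1 ± 1.91 CPM in DMSO. Atg4b, at 53 ± 1.53 CPM in DSF and 51.1 ± 0.736 CPM in DMSO, and Atg4c, at 1.93 ± 0.057 and 1.66 ± 0.141 CPM, did not pass. Of the 3 sestrin genes, Sesn1 had 84.1, 85 and 85.8 CPM in DSF, against 62.9, 60.0 and 58.2 CPM in DMSO. Sesn3 had 244, 239 and 248 CPM in DSF, against 294, 289.7 and 313 CPM in DMSO. Sesn2, at 30.1 ± 0.502 CPM in DSF and 34.2 ± 2.92 CPM in DMSO, was lower (edgeR's adjusted p = 0.0317). The differences between the relatives were not tested.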
